A study of Mus musculus with 2 samples.

Results

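Among 10513 tumor cells of mouse pancreatic tumors that carried keratin RNA but little Epcam RNA, 526 cells had the largest share of RNA from the complement genes C3 and C1s1, the chemokine gene Cxcl5, the antimicrobial gene Lcn2 and the adhesion gene Vcam1. A base cell had at least 3000 UMIs (unique molecular identifiers, which count RNA molecules), at most 1 UMI of the leukocyte gene Ptprc, under 0.3% of its UMIs from Col1a1, Col1a2 and Col3a1, at least 0.2% from Krt8 and Krt18, and under 0.04% from Epcam. The members are the top 5% of the base cells of both libraries together by the summed share of the 5 genes, and the other 9987 base cells are what they were set against. The whole data set held 24282 cells. Because measured RNA chose the members, every value of members beside other base cells is a description and carries no test.

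The tumors were orthotopic KPC tumors, grown in the pancreas from a mouse model of pancreatic cancer, and sampled from mice given 10 mg/kg EIPA or DMSO. EIPA is an amiloride derivative that blocks sodium-proton exchange and macropinocytosis, the bulk uptake of fluid by cells, and DMSO is the solvent that served as its control. Each of the 2 samples pooled 4 tumors, and RNA was read with gene-specific probes in fixed, dissociated cells. Which treatment a library had cannot be read from the barcodes, which end in 2 or 1, so the samples are called library 2 and library 1, and no value has a treatment direction. Ratios put library 2 on top for order only. Each library is 1 sample, so intervals cover counting error only, and differences between animals could not be tested.

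Complement is a cascade of blood proteins in which proteases activate the central protein C3, whose fragments coat cells and draw leukocytes. The classical arm starts with C1q, C1r and C1s, and the alternative arm amplifies C3 cleavage with factor B, while factor I inactivates the product. Epithelial cells under inflammatory signals are known to make some of these proteins, together with neutrophil-attracting chemokines, Lcn2 and leukocyte adhesion molecules.

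The base held 5300 cells of library 2 and 5213 of library 1. Members numbered 323 in library 2, which is 6.09% of its base cells (exact Clopper-Pearson 95% interval 5.47 to 6.77), and 203 in library 1, which is 3.89% (3.39 to 4.46). The ratio of the 2 shares was 1.57 (1.32 to 1.86). It was 1.24 when C3 did not take part in the choice, 2.01 when the 5 genes weighed equally and 2.10 for the top 2.5% of cells. Member cells had a median of 18169 UMIs in library 2 and 19509 in library 1, against 17785 and 17305 UMIs in the other base cells. Their median mitochondrial share was 0.549% and 0.433%, against 0.484% and 0.372%. With every cell thinned to 3000 UMIs before the choice the ratio of shares was 1.52. Of 225 barcode sequences found in both libraries, 8 belonged to a member in 1 library and 0 to members in both.

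The share that chose the members ran without a gap from one set to the other. The highest member had 1.04% of its UMIs from the 5 genes and the median member 0.223%. The last cell inside had 0.1363% and the first outside 0.1357%, and the median other base cell had 0.0161%. In the 1993 cells that passed the same gate but had more Epcam (Epcam-high cells), 19.0% in library 2 and 13.2% in library 1 reached the share of the last member. A high share of the 5 genes was therefore not confined to the base cells.

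C3, the central complement protein (chr17:57203970-57228136, GRCm38, minus strand), stood at 1074 CPM (the gene's share of the UMIs of the summed cells) in members of library 2 and 587 CPM in those of library 1, against 65.5 and 50.2 CPM in the other base cells. C1s1, which encodes the C1s protease of the classical arm (chr6:124530345-124542359, minus strand), stood at 221 and 61.2 CPM, against 12.3 and 4.31 CPM. The neutrophil attractant Cxcl5 (chr5:90759360-90761624, plus strand) stood at 511 and 563 CPM in members, against 37.5 and 42.8 CPM. In members C3 and C1s1 were higher in library 2 and Cxcl5 was about level between the libraries.

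Lcn2, which starves bacteria of iron (chr2:32384633-32388252, minus strand), stood at 312 CPM in members of library 2 and 405 CPM in those of library 1, against 21.6 and 34.2 CPM in the other base cells. Vcam1, which holds leukocytes through their integrins (chr3:116109949-116129688, minus strand), stood at 603 and 670 CPM, against 115 and 148 CPM. Vcam1 was thus the rule gene with the smallest log2 ratio, 2.38 and 2.17, while the other 4 lay between 3.52 and 4.07. Epcam-high cells lay between the 2 sets for all 5 genes in both libraries, for example at 255 and 168 CPM for C3 and at 230 and 192 CPM for Cxcl5.

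**Figure D1:**
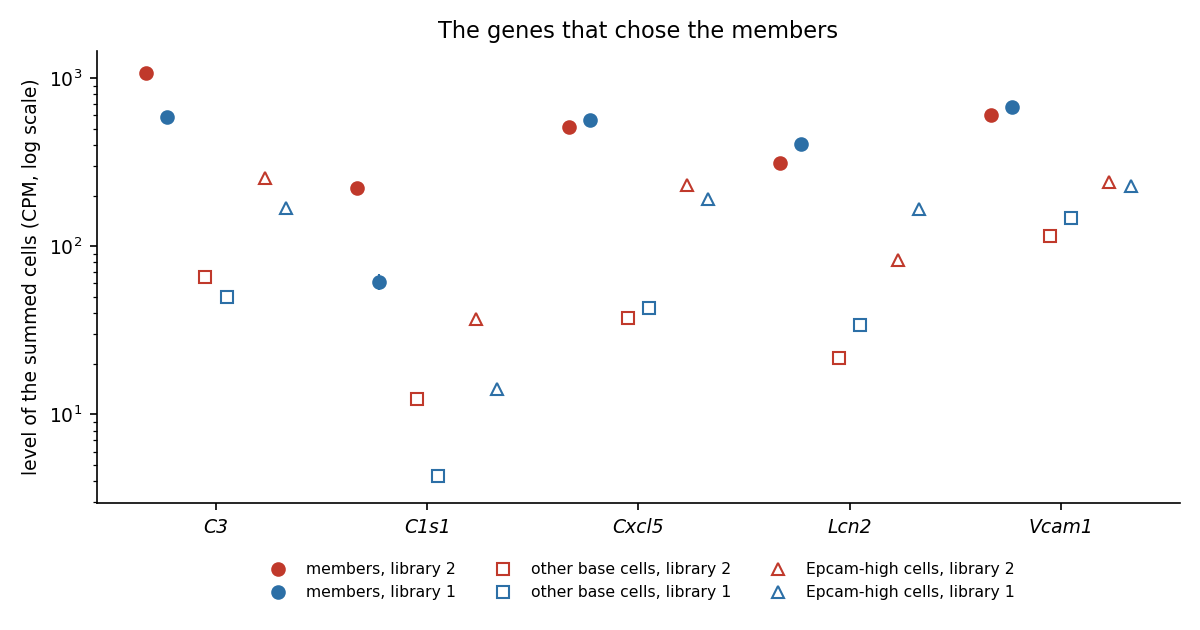
Level of the 5 genes that chose the members in the summed cells of each set and library (CPM, log scale; bars are exact Poisson 95% intervals for members and other base cells, mostly smaller than the points). Members (filled circles) lie above other base cells (squares) by construction, with Epcam-high cells (triangles) between them.

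Cells that should lack C3 and Cxcl5 served to gauge free RNA. T cells were taken as cells with at least 2 UMIs of Cd3d, Cd3e and Cd3g together and at least 2 of Ptprc. They also had under 0.2% of their UMIs from Krt8 and Krt18, and at least 1000 UMIs. T cells numbered 109 in library 2 and 49 in library 1, with a median of 5733 and 7258 UMIs. In cells thinned to 1000 UMIs, 55.7% of members of library 2 and 39.4% of those of library 1 had a C3 UMI, against 5.47% and 4.21% of the other base cells and 8.26% (exact Clopper-Pearson 95% interval 3.85 to 15.1) and 14.3% (5.94 to 27.2) of T cells. For Cxcl5 the shares were 29.4% and 35.5% of members, 3.46% and 3.83% of other base cells and 4.59% (1.51 to 10.4) and 6.12% (1.28 to 16.9) of T cells. Over all other base cells the C3 and Cxcl5 shares thus did not exceed those of T cells, which for C3 in library 1 were higher with intervals apart. For Vcam1 the shares were 9.74% and 11.1% of other base cells and 7.34% (3.22 to 13.95) and 16.3% (7.32 to 29.7) of T cells. T cells held fewer UMIs, and thinning does not even out the part of free RNA between cells of unlike depth. The other base cells were not uniform, since those ranked 5 to 10% by the 5 genes had 331 and 226 CPM of C3 and the lowest 50% had 17.8 and 13.7 CPM, against 95.5 and 184 CPM in T cells. These ranks use C3 itself.

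The sequence before the gene start is shown for the rule genes that have an entry in the RefSeq promoter table (GRCm38.p6), 3 of 5, since C3 correlated most closely with the other 2 across base cells. Each line gives 250 bases 5′ to 3′ on the gene's strand, ending just before the RefSeq start. Capitals mark matches to TTGCNNAA, a pattern of C/EBP factors, or to GGNNNTTCC, a pattern of NF-kB, on either strand, with no overlap between the matches.
C3: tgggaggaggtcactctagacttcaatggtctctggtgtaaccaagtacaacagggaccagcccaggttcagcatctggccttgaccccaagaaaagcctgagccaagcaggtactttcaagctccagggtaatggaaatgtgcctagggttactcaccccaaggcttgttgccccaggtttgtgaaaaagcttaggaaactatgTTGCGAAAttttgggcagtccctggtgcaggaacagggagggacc
C1s1: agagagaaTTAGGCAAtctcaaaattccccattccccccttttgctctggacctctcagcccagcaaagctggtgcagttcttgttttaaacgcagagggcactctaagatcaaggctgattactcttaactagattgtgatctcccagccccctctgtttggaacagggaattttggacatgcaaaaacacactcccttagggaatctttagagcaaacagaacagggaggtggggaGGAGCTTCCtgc
Lcn2: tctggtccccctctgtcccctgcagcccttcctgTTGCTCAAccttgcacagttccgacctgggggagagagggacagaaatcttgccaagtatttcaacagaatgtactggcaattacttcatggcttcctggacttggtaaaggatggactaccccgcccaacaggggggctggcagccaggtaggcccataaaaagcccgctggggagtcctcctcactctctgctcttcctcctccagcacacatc
The windows are chr17:57228137-57228386, chr6:124542360-124542609 and chr2:32387740-32387989. The first 2 end at the gene bounds given above, which are from GENCODE, while the Lcn2 window lies inside them, because the RefSeq start used is a more downstream one. Each of the 3 held 1 match to TTGCNNAA, which 9.55% of 27025 promoters of that length held, and C1s1 also held 1 match to GGNNNTTCC, which 15.6% held. A wider form of the NF-kB pattern, of 10 letters, matched once in C3 and once in Lcn2 but not in C1s1, and 16.3% of promoters held it. Matches to the NF-kB pattern thus depended on its form. The promoters of C1ra and Icam1, also higher in members, were scanned too and held no match to TTGCNNAA. C1ra held no match to either NF-kB form, while Icam1 held 3 to GGNNNTTCC and 1 to the wider form. A match is a description of the letters, not a site. No promoter is shown for Cxcl5 or Vcam1.

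How widely the 5 genes were spread over the members differed by gene. C1s1 had a UMI in 71.2% of members of library 2 but in 33.0% of those of library 1. Of the C1s1 UMIs of library 1 members, 3 cells held 29.6%. The other rule genes each had a UMI in 76.5% to 96.9% of members of either library. C3 had the most UMIs of the 5 in 57.3% of members of library 2 and 30.05% of those of library 1. Vcam1 led in 19.8% and 33.5%, Cxcl5 in 18.9% and 22.2%, Lcn2 in 3.41% and 14.3%, and C1s1 in 0.619% and 0%. All 5 genes had a UMI in 152 members of library 2 (47.1%) and 51 of library 1 (25.1%), against 3.07% and 2.00% of the other base cells. With every cell thinned to 3000 UMIs, 24 and 5 members still had all 5, against 0 cells of the rest in either library.

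Leaving each gene out of the choice gave the level of that gene in cells it had not helped to choose. C3 stood at 972 CPM in library 2 and 413 CPM in library 1 in the 526 cells chosen by the other 4 genes, against 83.1 and 56.4 CPM in the cells not chosen. C1s1 stood at 213 and 59.8 CPM, against 13.3 and 4.32 CPM. Vcam1 had the smallest fold, 4.10 and 2.49, at 502 and 405 CPM against 122 and 162 CPM. Cells chosen without 1 gene shared between 80.6% and 96.2% of the members. Each gene was thus several times higher in cells chosen by the others, with Vcam1 in library 1 the least so.

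When the UMIs of each cell were split at random into 2 parts and the members chosen on 1 part, the other part gave a median share of 0.227% in library 2 and 0.186% in library 1, against 0.0141% and 0.0156% in cells not chosen. That choice shared 89.5% of the members.

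Across the 10513 base cells the expression of C3 went most closely with C1s1 (Pearson r = 0.48) and Lcn2 (0.48), then with Atp1b1, a subunit of the sodium pump (0.41), C1ra (0.38) and the autophagy gene Dram1 (0.36). For Vcam1 the nearest genes were others, namely the glutathione transferase Gsta4 (0.46), the complement factor B gene Cfb (0.42), the surface protein gene Ly6a (0.41), the lipopolysaccharide co-receptor Cd14 (0.41) and the carboxylesterase Ces2g (0.41). Its own r with C3 was 0.36 and with C1s1 0.23. These cells share 2 libraries and differ in depth, so the values are descriptions over cells.

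Members were also neighbors of each other in genes outside the rule. Without the 5 genes, on 30 principal components of 2000 variable genes, an average of 40.4% of the 30 nearest base cells of a library 2 member were members, and 19.6% for a library 1 member. The other base cells had 2.85% and 2.23%. At least 50% of the neighbors were members for 44.3% of the members of library 2 and for 4.93% of those of library 1. At the other end, 6.81% and 12.3% of members had no member among their neighbors. Members of library 2, which were also more numerous, thus had more members around them than those of library 1.

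Over all genes a call meant a log2 ratio of CPM plus 1 of at least 1 in size in both libraries, with exact Poisson 95% intervals apart in both, among genes with at least 20 CPM in a sum. Of 8804 genes outside the rule, 211 were higher in members (2.4%) and 55 were lower (0.625%), while the median log2 ratio of all of them was -0.01 in both libraries. Without the 3 highest cells of each gene the counts were 110 and 92. This took 3 cells from each set of each library, a larger part of the members, so by construction it tends to lower member levels more. With the other base cells weighted to the Epcam share of the members, 133 were higher. The shares of 2.4% and 0.625% stand beside every list count below, and the lack of a call in a short list does not set it apart.

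The higher genes named by rule included glutathione transferases, secreted proteins and proteins of the epithelial surface. Gsta3, a glutathione transferase, stood at 194 CPM in members of library 2 and 86.0 CPM in those of library 1, against 14.4 and 15.2 CPM in the other base cells (log2 3.65 and 2.42). Its relative Gstt1 stood at 68.9 and 55.2 CPM, against 13.4 and 12.3 CPM. Both were higher in members by more than counting error in each library, and Gsta3 more so in library 2.

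Cfi, the gene of complement factor I, stood at 163 and 88.6 CPM in members, against 23.4 and 20.3 CPM (log2 2.75 and 2.07). The secreted protease-like gene Pamr1 stood at 128 and 93.4 CPM, against 13.6 and 14.4 CPM, and the protease inhibitor Spink4, known from goblet cells, at 156 and 91.6 CPM, against 20.4 and 17.0 CPM. Of the Spink4 UMIs, 3 cells held 21.2% in library 2 and 41.5% in library 1. Gas6, a ligand of the receptor kinase Axl, stood at 190 and 128 CPM, against 23.3 and 26.3 CPM. These 4 genes code for secreted proteins.

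Icam1, a leukocyte adhesion molecule like Vcam1, stood at 211 CPM in members of library 2 and 164 CPM in those of library 1, against 43.5 and 40.5 CPM (log2 2.26 and 1.99). Dram1 stood at 119 and 68.8 CPM, against 18.2 and 15.04 CPM. The transcription factor gene Mycn stood at 50.6 and 51.7 CPM, against 7.63 and 12.3 CPM. The set also held genes of epithelial shape and surface, namely Shroom3, a regulator of apical constriction (log2 2.81 and 1.95), the kinesin Kif12 (2.78 and 2.03), the tight-junction protein Tjp3 (2.56 and 1.70), the mucin Muc4 (2.46 and 1.95) and the cilium protein Pkhd1 (2.47 and 1.75). All 15 had the larger log2 ratio in library 2.

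**Figure D2:**
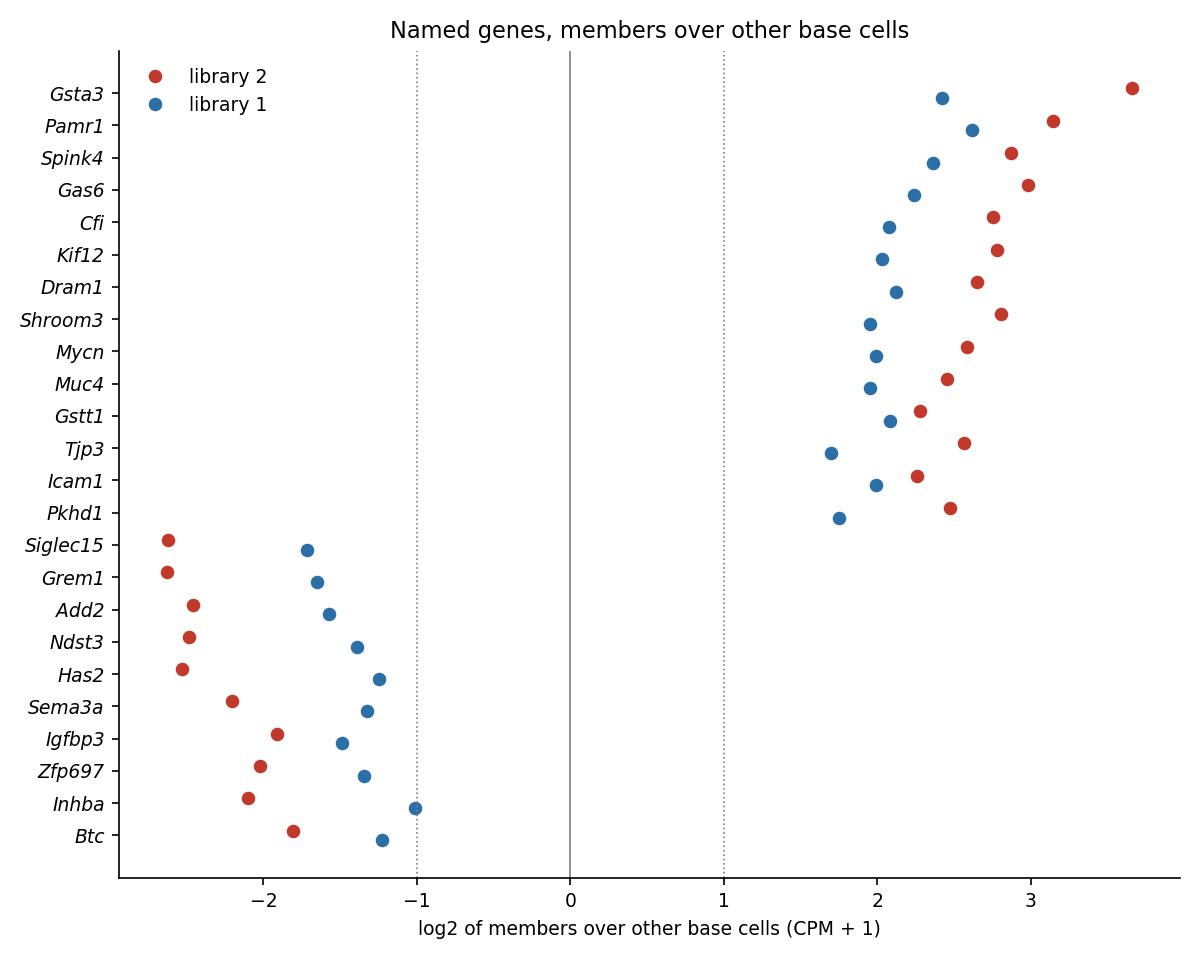
Log2 ratio of members over other base cells for 14 of the 15 higher and the 10 lower genes chosen by rule, 1 point a library (library 2 red, library 1 blue), with dotted lines at the size a call needed. Ratios ran from 1.70 to 3.65 for the higher genes and from -2.63 to -1.01 for the lower ones, and were larger in size in library 2 for every gene shown.

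Several of these genes were not higher in members than in Epcam-high cells. Gas6 stood at 190 and 128 CPM in members, against 287 and 328 CPM in Epcam-high cells, Cfi at 163 and 88.6 CPM, against 223 and 240 CPM, and Muc4 at 53.6 and 70.3 CPM, against 119 and 174 CPM. Icam1 was the other way round, with 211 and 164 CPM in members against 120 and 97.2 CPM in Epcam-high cells. Gsta3 differed by library, with 194 and 86.0 CPM in members and 100 and 94.3 CPM in Epcam-high cells.

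The lower genes named by rule included secreted ligands, their binders and a matrix enzyme. Igfbp3, which binds insulin-like growth factors, stood at 178 CPM in members of library 2 and 270 CPM in those of library 1, against 672 and 759 CPM in the other base cells (log2 -1.91 and -1.49). Inhba, a subunit of activin, stood at 101 and 277 CPM, against 437 and 560 CPM (-2.10 and -1.01). Has2, which makes hyaluronan, stood at 21.2 and 34.6 CPM, against 127 and 83.5 CPM (-2.53 and -1.25). Each was lower in members than in other base cells of both libraries, with the lower member level in library 2. In Epcam-high cells Igfbp3 stood at 169 and 237 CPM, Inhba at 91.9 and 144 CPM and Has2 at 38.0 and 28.2 CPM. Every lower gene named by rule was also lower in Epcam-high cells than in other base cells, in both libraries. These low levels were thus not particular to members.

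Grem1, an antagonist of BMP signals, had log2 ratios of -2.63 and -1.65, and the lectin Siglec15 had -2.62 and -1.71. The cytoskeletal Add2 (-2.46 and -1.57), the heparan sulfate enzyme Ndst3 (-2.49 and -1.39), the guidance ligand Sema3a (-2.20 and -1.32), the zinc finger gene Zfp697 (-2.02 and -1.35) and the EGFR ligand Btc (-1.81 and -1.23) completed the set.

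These differences ran over the whole base and did not start at the member boundary. Over 5 bands of base cells, ranked by their share of the 5 genes from the lowest 50% through ranks 20 to 50%, 10 to 20% and 5 to 10% to the members, the 15 higher genes had median log2 levels, relative to the lowest band, of 0, 1.13, 2.15, 2.53 and 3.60 in library 2 and of 0, 0.80, 1.48, 1.97 and 2.86 in library 1. For the 10 lower genes they were 0, -0.61, -1.23, -1.76 and -2.67 in library 2, and 0, -0.45, -0.93, -1.24 and -1.70 in library 1. Krt7 went the same way, at 212, 398, 697, 795 and 1286 CPM in library 2 and at 324, 478, 695, 800 and 1055 CPM in library 1. Cells just outside the members thus lay nearer to them than to the lowest band in the higher genes.

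**Figure D3:**
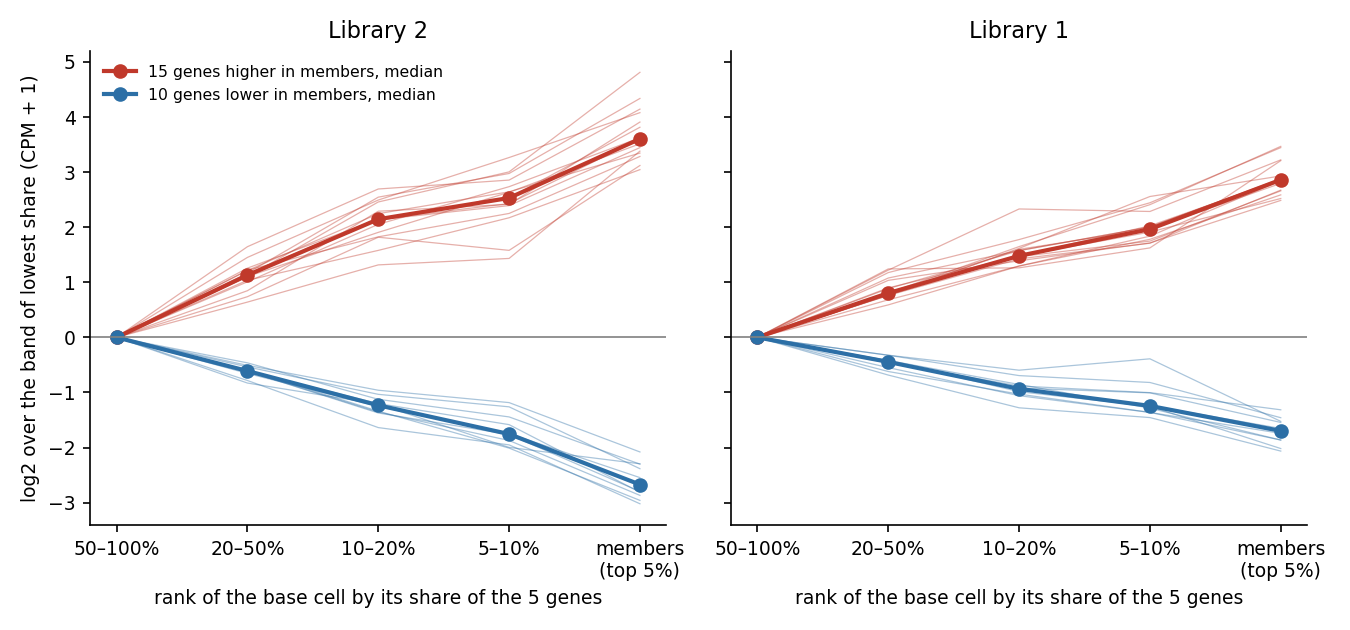
Log2 level of the 15 higher genes (red) and the 10 lower genes (blue) relative to the base cells of lowest share, over 5 bands of base cells ranked by their share of the 5 genes, with 0 to 5% the members. Thin lines are genes and thick lines medians, which reach 3.60 and -2.67 in library 2 and 2.86 and -1.70 in library 1, after 2.53 and -1.76, and 1.97 and -1.24, in the band next to the members.

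In complement, C1ra and Cfb were higher in members beside the rule genes. C1ra, the protease that activates C1s and whose gene lies beside C1s1 (chr6:124512405-124523443, plus strand), stood at 42.9 CPM in members of library 2 and 20.9 CPM in those of library 1, against 2.5 and 1.54 CPM (log2 3.65 and 3.11). Cfb, factor B, stood at 730 and 642 CPM, against 279 and 283 CPM (1.39 and 1.18). These were 2 of 7 genes tested of the complement activation list outside the rule, where 2.4% of all genes were higher, and none was lower. C4b, cleaved by C1s, stood at 35.5 and 18.5 CPM, against 12.7 and 10.6 CPM, and passed the size in library 2 only.

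The remaining tested genes of that list passed no call. C1qb, a chain of C1q made mostly by macrophages, stood at 51.1 and 51.7 CPM in members, against 59.1 and 50.9 CPM, and C1qa at 14.99 and 21.1 CPM, against 15.5 and 20.7 CPM. The terminal components C6, C7, C8a, C8b and C9 were each under 1 CPM in members of both libraries. The list had a median log2 ratio of -0.05 in library 2 and 0.03 in library 1, over 7 genes, and this median took either sign over the alternatives. Beside C3 and C1s1, which are high by choice, the name complement-rich rests on C1ra, Cfb and Cfi and not on the whole list. In Epcam-high cells Cfi was higher than in members, at 223 and 240 CPM, and so was C4b, at 78.6 and 106 CPM. C1ra and Cfb were lower there than in members. The regulator Clu was abundant in all base cells, at 20894 and 25575 CPM in members and 21232 and 28643 CPM in the rest.

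Among chemokines, Cxcl5 was the single CXCR2 ligand with at least 20 CPM. Cxcl2 stood at 17.8 and 15.5 CPM in members, against 3.99 and 5.88 CPM, Cxcl3 at 6.02 and 6.44 CPM, against 0.998 and 1.04 CPM, and Cxcl1 at under 1 CPM in members and in the rest. Of 4 other CXC and CX3C chemokines tested, 3 were higher, where 2.4% of all genes were. Cxcl16, a chemokine that draws T cells, stood at 374 and 433 CPM, against 132 and 189 CPM. The interferon-induced T cell attractants Cxcl9 and Cxcl10 stood at 50.6 and 30.2 CPM and at 33.3 and 63.8 CPM, against 7.07 and 3.53 CPM and 10.6 and 5.16 CPM. Of the Cxcl9 UMIs of members, 3 cells held 53.2% in library 2 and 79.3% in library 1, and of the Cxcl10 UMIs 56.8% and 86.4%. None of 14 CC chemokine genes reached 20 CPM, with Ccl2 at 16.8 and 9.86 CPM in members, against 2.64 and 1.52 CPM.

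Genes of the acute-phase and antimicrobial list had a median log2 ratio of 1.69 in library 2 and 0.84 in library 1. Outside the rule, 3 of 8 tested were higher, where 2.4% of all genes were. These were the protease inhibitor Slpi (20.6 and 6.24 CPM, against 2.15 and 1.39 CPM), the bactericidal lectin Reg3g (25.5 and 7.45 CPM, against 3.31 and 2.29 CPM) and the glycoprotein Lrg1 (24.2 and 13.7 CPM, against 3.87 and 4.60 CPM). Of the Reg3g UMIs of members, 3 cells held 37.0% in library 2 and 83.8% in library 1. The abundant lipopolysaccharide-binding protein Lbp stood at 816 and 539 CPM, against 200 and 322 CPM, with a log2 ratio of 0.74 in library 1 that missed the size. Cp, the copper carrier ceruloplasmin, stood at 618 and 560 CPM, against 241 and 293 CPM. The serum amyloid genes Saa1 and Saa2 had no UMI in members, and Saa3 stood at 1.47 and 1.21 CPM.

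Genes of the interferon response and of antigen presentation were among those higher than in other base cells. Summed over its genes, MHC class I stood at 3519 and 2131 CPM in members and 3614 and 2432 CPM in Epcam-high cells. Type I interferon genes summed to 1658 and 1769 CPM, against 1912 and 1626 CPM in Epcam-high cells. Interferon gamma genes summed higher in members of both libraries, at 1397 and 1184 CPM, against 1198 and 839 CPM in Epcam-high cells. Of 17 interferon gamma response genes tested 8 were higher (median log2 ratio 0.95 in library 2 and 1.44 in library 1), where 2.4% of all genes were. Of 18 type I interferon genes 5 were higher (0.67 and 0.96). Gbp2, a guanylate-binding protein against intracellular pathogens, stood at 142 and 108 CPM in members, against 39.6 and 22.04 CPM, with 51.1% and 51.1% of its UMIs in 3 cells. In library 1 members, 3 cells held 85.8% of the UMIs of Gbp5, 54.1% of Iigp1 and 42.7% of Gbp3. For Ciita, Tap1 and Psmb8, also higher, they held 30.4%, 25.8% and 17.5%. The library 1 values of several of these genes thus rest on few cells. Ciita, the master regulator of MHC class II and a gene of that list too, stood at 74.4 and 41.1 CPM, against 20.0 and 8.81 CPM. Of 13 MHC class I genes 7 were higher and all 13 were above 0 in both libraries (median 1.08 in each), and Tap1, Psmb8 and Psmb9 stand in both this list and the interferon gamma list. H2-K1, a class I heavy chain with near-identical relatives that make its level uncertain, stood at 1604 and 870 CPM, against 763 and 369 CPM.

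MHC class II genes summed to 3402 and 1551 CPM in members and 2647 and 1675 CPM in Epcam-high cells. Beside other base cells 3 of 8 were higher, where 2.4% of all genes were. Among them was the invariant chain Cd74, at 2304 CPM in members of library 2 and 1001 CPM in those of library 1, against 579 and 403 CPM. The chains H2-Ab1 and H2-Eb1 stood at 381 and 173 CPM and at 379 and 166 CPM, against 135 and 90.9 CPM and 120 and 86.5 CPM, and fell short of the size in library 1. The levels of these 3 genes were highest in members of library 2. The 9 dendritic cell markers summed to 197 and 211 CPM in members, against 207 and 183 CPM, and the part of RNA from immune cells in the class II levels was not tested.

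Of 19 NF-kB targets tested 4 were higher, where 2.4% of all genes were (median log2 ratio 0.28 and 0.44), namely Icam1, the growth factor Csf1 (44.7 and 46.9 CPM, against 12.0 and 10.2 CPM), the inhibitor Tnfaip3 (54.5 and 61.0 CPM, against 22.3 and 25.3 CPM) and the cytokine Tnf (32.8 and 29.99 CPM, against 11.4 and 10.2 CPM). In Epcam-high cells Tnf was higher than in members, at 50.9 and 38.2 CPM, while Icam1, Csf1 and Tnfaip3 were lower than in members. None of 13 IL-6 and STAT3 targets passed (0.22 and 0.08), with Socs3 at 127 and 147 CPM, against 109 and 131 CPM in other base cells. Of 23 genes of C/EBP, NF-kB, STAT and other transcription factors 2 were higher, among them the epithelial factor Elf3 (231 and 182 CPM, against 74.6 and 88.1 CPM). Cebpd stood at 315 and 441 CPM, against 142 and 239 CPM, and missed the size in library 1. None of 18 cytokine and pattern receptor genes passed, although 15 of them were above 0 in both libraries (0.65 and 0.40).

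**Figure D4:**
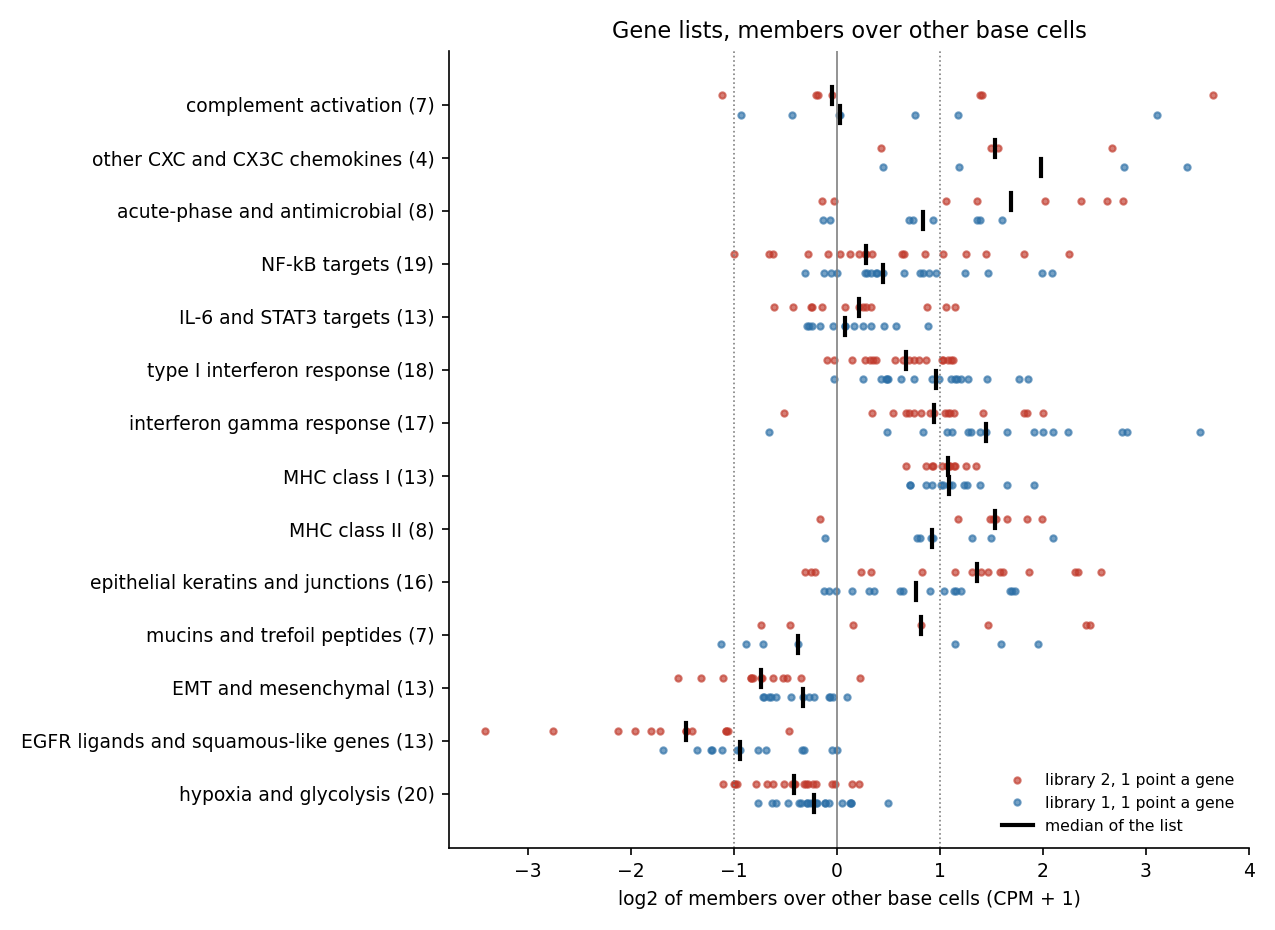
Log2 ratio of members over other base cells for each tested gene of 14 lists, without the 5 rule genes, 1 point a gene and library (library 2 red above library 1 blue), with the number of genes tested in brackets and black bars at list medians. Medians are near 0 for complement activation (-0.05 and 0.03), above 1 in both libraries for CXC chemokines and MHC class I, and below 0 in both for EGFR ligands, EMT and hypoxia genes.

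Some epithelial genes were higher in members than in other base cells. Their list summed to 8502 and 8134 CPM in members and 15246 and 14343 CPM in Epcam-high cells, which were chosen by Epcam. Beside other base cells 7 of 16 epithelial genes tested were higher (median log2 ratio 1.36 and 0.77), where 2.4% of all genes were. Krt7, a keratin of duct cells, stood at 1286 and 1055 CPM, against 353 and 456 CPM. Krt8 and Krt18, which the gate used, passed no call, Krt8 at 2218 and 1945 CPM, against 2577 and 2053 CPM. The tight-junction genes Cldn4 (24.4 and 42.5 CPM, against 8.62 and 12.6 CPM), Cldn7 and Ocln were among the higher ones. The mucosal peptide Tff2 stood at 1367 and 832 CPM, against 254 and 274 CPM, and the mucin Muc1 at 309 and 326 CPM, against 111 and 147 CPM, while the gel-forming Muc5ac stood at 71.2 and 114 CPM, against 97.8 and 250 CPM.

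Epcam itself, the epithelial surface protein that the gate capped, stood at 118 CPM in members of library 2 and 105 CPM in those of library 1, against 38.7 and 55.8 CPM in the other base cells. Members made up 4.66% and 2.84% of base cells with no Epcam UMI, 4.81% and 4.17% of those with up to 0.01%, 11.9% and 4.56% of those with 0.01 to 0.02%, and 16.8% and 9.24% of those with 0.02 to 0.04%. The share of members was thus highest near the Epcam limit of the gate in both libraries. The part of Epcam in the other differences was not tested beyond the weighting given above.

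**Figure D5:**
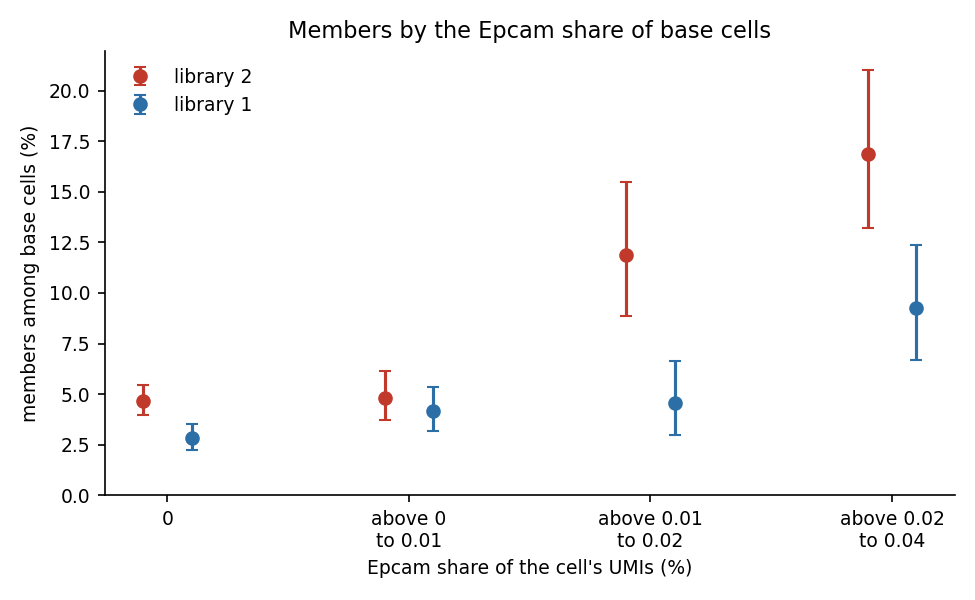
Members as a percentage of base cells in 4 bins of Epcam share, by library (library 2 red, library 1 blue), with exact Clopper-Pearson 95% intervals. The share is 4.66% and 2.84% with no Epcam UMI, and 16.8% and 9.24% in the bin nearest the limit.

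Beside other base cells, genes of the mesenchymal side, hypoxia and EGFR ligands lay on the low side. None of 13 EMT and mesenchymal genes passed a call, but 11 were below 0 in both libraries (median -0.74 and -0.33). Fn1, fibronectin, stood at 3098 and 4312 CPM in members, against 5520 and 7097 CPM, and Vim, vimentin, at 3762 and 4136 CPM, against 4795 and 4340 CPM. Of 13 EGFR ligand and squamous-like genes 5 were lower, where 0.625% of all genes were, and all 13 were below 0 in both libraries (-1.47 and -0.94). Among the 13 were the ligand Areg (59.0 and 79.1 CPM, against 196 and 173 CPM) and the cornified-envelope gene Ivl (85.7 and 190 CPM, against 239 and 492 CPM). None of 20 hypoxia and glycolysis genes passed (-0.42 and -0.22), with Vegfa at 375 and 527 CPM, against 752 and 816 CPM. The EMT list summed to 8057 and 9867 CPM in members and 6857 and 7496 CPM in Epcam-high cells. The EGFR ligand list summed to 917 and 1744 CPM in members and 1021 and 1216 CPM in Epcam-high cells. The hypoxia list summed to 3551 and 4208 CPM in members and 4729 and 5183 CPM in Epcam-high cells. Low EMT and EGFR ligand sums were thus not particular to members.

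Proliferation genes differed by library. None of 17 passed, and their median was -0.15 in library 2 and 0.78 in library 1. Top2a, which untangles replicated DNA, stood at 84.6 CPM in members of library 2 and 80.9 CPM in those of library 1, against 111 and 44.1 CPM in the other base cells. Members were at a like level in both libraries, and the other base cells were not. None of 17 genes of macropinocytosis and proton exchange passed either (-0.12 and -0.001).

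Marker lists of most other cell types summed to like levels in members and other base cells. The 16 macrophage and monocyte markers summed to 806 CPM in members of library 2 and 929 CPM in those of library 1, against 761 and 779 CPM, and of these Cd14, higher in members, made up 368 and 419 CPM, against 141 and 192 CPM. The defining Csf1r stood at 10.6 and 13.3 CPM, against 13.2 and 13.1 CPM. The 12 neutrophil markers summed to 33.7 and 53.9 CPM, against 33.6 and 39.9 CPM, and the 13 fibroblast markers to 256 and 185 CPM, against 244 and 192 CPM. The 12 endothelial markers summed to 35.99 and 33.8 CPM, against 44.1 and 50.4 CPM.

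Mesothelial markers summed to 3264 and 3241 CPM, against 2208 and 2237 CPM, nearly all of it Msln and Krt19, with Upk1b and Lrrn4 at 0 in members. Hepatocyte markers summed to 2620 and 2055 CPM, against 1897 and 2202 CPM, nearly all of it Trf and Apob, with Cps1 and Ahsg at 0. The 13 T and NK markers summed to 18.9 and 9.26 CPM, against 20.7 and 10.3 CPM, the 8 B and plasma cell markers to 4.91 and 8.45 CPM, against 6.26 and 13.4 CPM, and the 10 pericyte and smooth muscle markers to 29.4 and 23.8 CPM, against 28.9 and 22.8 CPM. Acinar markers summed to 40.7 and 29.6 CPM, against 20.5 and 22.3 CPM, and islet markers to 3.56 and 6.04 CPM, against 5.24 and 10.98 CPM. Of 11 markers of normal duct cells Krt7 and Muc1 were higher.

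At least 3 UMIs of the macrophage markers Csf1r, Adgre1, C1qa, C1qb and C1qc were found in 30.03% of members of library 2 and 26.1% of those of library 1, against 23.1% and 21.1% of the other base cells. High doublet scores were found in 7.74% and 6.90% of members, against 9.52% and 9.90%. With all cells holding 3 or more UMIs of such markers of another type left out, 233 genes were higher in members.

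Members differed among themselves by the gene that led them. In members led by C3 (185 in library 2 and 61 in library 1) C1ra stood at 55.5 and 38.9 CPM and Spink4 at 194 and 188 CPM. In those led by Vcam1 (64 and 68) C1ra stood at 26.4 and 10.3 CPM and Spink4 at 86.6 and 47.2 CPM, and in those led by Cxcl5 (61 and 45) at 18.0 and 13.7 CPM and at 99.4 and 62.5 CPM. Cd74 stood at 2666 and 1784 CPM in members led by C3 and at 2411 and 860 CPM in those led by Vcam1, but at 1056 and 486 CPM in those led by Cxcl5.

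The interferon-induced Cxcl9 was also lowest where Cxcl5 led, at 12.2 and 1.71 CPM. It stood at 60.4 and 55.1 CPM where C3 led and at 60.2 and 37.5 CPM where Vcam1 led. Of the Cxcl9 UMIs of all members, 3 cells held 53.2% in library 2 and 79.3% in library 1. The part of these cells in the Cxcl9 levels was not tested. H2-K1 stood at 1773 and 1383 CPM where C3 led, at 1722 and 859 CPM where Vcam1 led and at 966 and 415 CPM where Cxcl5 led. In library 1, Lcn2 led in 29 members, with Pamr1 at 148 CPM and Muc4 at 135 CPM. Krt7 varied little by comparison, between 1234 and 1475 CPM over the groups of library 2 and between 1011 and 1218 CPM over those of library 1. Members led by Cxcl5 were thus lowest in C1ra in library 2, and in Cd74 and H2-K1 in both libraries. For Cxcl9 the same order rests on few cells.

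Between the libraries, 59 of 8644 genes tested in members were higher in library 2 (0.683%) and 34 were lower (0.393%), by a log2 ratio of at least 1 in size with intervals apart. In the other base cells 62 of 8376 were higher (0.74%) and 18 lower (0.215%). The shared calls were 2 of the higher genes, which is 3.39% of those of members and 3.23% of those of other base cells, and 5 of the lower genes, 14.7% and 27.8%. A gene under the minimum of 20 CPM in 1 set could not be shared. Of the 59 genes higher in library 2 members 16 reached it in other base cells, and of the 34 lower 27 did. Of the 62 and 18 genes called in other base cells, 54 and 17 reached it in members. The part of the minimum in the small overlap was not tested. C1s1 and Cldn3, higher in library 2 members, did not reach it in other base cells. Whether the library difference itself differed between members and other base cells could not be tested with 1 sample each.

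The alpha-1-antitrypsin gene Serpina1b stood at 51.7 CPM in members of library 2 and 2.42 CPM in those of library 1 (log2 3.95), against 3.34 and 1.25 CPM in the other base cells. It belongs to a family of near-identical genes that probes may not tell apart. The guanine nucleotide exchange factor Kalrn stood at 78.2 and 9.86 CPM (2.87), against 10.7 and 7.39 CPM, and the tight-junction gene Cldn3 at 73.7 and 17.1 CPM (2.04), against 14.0 and 4.47 CPM. C1s1 had a log2 ratio of 1.84 in members and 1.32 in the other base cells. The Wnt ligand Wnt10a (1.73), the membrane protease Hpn (1.64), the receptor partner Ramp3 (1.55) and the metalloproteinase inhibitor Timp3 (1.55) were also higher in library 2 members.

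Among the genes lower in library 2 members were the matrix metalloproteinases Mmp13, at 150 CPM in library 2 and 519 CPM in library 1 (log2 -1.78), and Mmp3, at 21.99 and 67.6 CPM (-1.58). In the other base cells Mmp13 stood at 588 and 520 CPM (0.18) and Mmp3 at 47.7 and 84.7 CPM (-0.82). Inhba had -1.44 in members and -0.36 in the other base cells. The basophil protease gene Mcpt8 (-1.57 in members and -0.70 in the others), the oxidized-LDL receptor Olr1 (-1.44 and -0.80), the matrix glycoprotein Thbs1 (-1.30 and -0.99), the calcium binder Tesc (-1.23 and -1.99) and the guidance gene Sema5a (-1.20 and -1.03) had ratios below 0 in both sets. Of the 4 sums, library 2 members had the lowest Mmp13 level. Over the alternatives, the ratio of 4 of these 16 genes in members came under the size of a call, at the least -0.61 for Mmp13 (top 10% of cells), -0.64 for Mmp3 and 0.65 for Timp3 (base cells with no Epcam UMI) and -0.76 for Sema5a (members chosen without C3).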

How the data were processed

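The deposited values are UMI counts per gene and cell, in 1 matrix of 19059 genes and 24282 cells for both samples. Cell Ranger 8.0.0 and the mm10 build are named in the submitters' processing notes. The authors' cell filter beyond that is not given in the sources used here. Members and gene lists were chosen with earlier results of these data known. Library 2 held 185474400 UMIs and library 1 held 203459556.

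UMIs were summed per set of cells and library and scaled to CPM, and ratios used CPM plus 1. Members gave 8141196 and 4967695 UMIs, against 105191563 and 104985049 in the other base cells. No p-value was computed, since each library is 1 sample. The call rule was checked on simulated sums. It treats UMIs as independent and does not cover uneven counts between cells.

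Named genes had at least 50 CPM in both libraries (in members for higher, in other base cells for lower), a call in both, and under 50% of a library's member UMIs in 3 cells; the 15 highest and 10 lowest by mean log2 ratio were taken. Of the 15, 1 gene is counted but not reported here by name, as are a few genes of the lists. For the library ratio the 8 highest and 8 lowest with at least 50 CPM in 1 library are named. Which list genes serve as examples was decided with their values in view. Atp1b1, Dram1 and the other genes nearest a rule gene are the 5 with the highest r.

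No doublets were removed. The automatic thresholds of Scrublet (scanpy 1.11.5) marked 0 cells in both libraries, so the caller did not work by itself; the cells of highest score at 0.8% per 1000 cells, 1141 and 1218, were removed in an alternative. Others changed the share taken, the ranking within libraries, the weight or number of the 5 genes, the minimum UMIs, the Ptprc limit, the pseudocount, the minimum CPM, scaling factors (TMM of edgeR 4.0.16 in R 4.3.3, or median of ratios), depth (thinning to 3000 UMIs, or weighting), the split of UMIs, per-cell means, the 3 highest cells and cells with other markers. The 2 on Epcam were added after the data were seen. Gene positions are from GENCODE, and promoters from RefSeq. Python 3.11.15, numpy 2.4.6, scipy 1.17.1, pandas 2.3.3, scikit-learn 1.9.0 and matplotlib 3.10.9 were used. Near-identical gene copies, such as MHC genes, C1ra, C1s1 and Serpina1b, may share probes; probe sequences were not analysed here.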

Additional observations from a re-analysis of the deposited data

How the results depend on the processing

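Each library is 1 sample of 4 pooled tumors, so no setting can speak to differences between animals, and depth limits genes under 20 CPM, which rest on few cells. No paired analysis was possible because each treatment has 1 sample and no value comes from a test. The cause of the moves below was not tested. The setting without the 3 highest cells takes a larger part of the members than of the other base cells. By construction it tends to lower member levels more. The number of genes higher in members, 211, was 85 with 10 CPM added, 338 with no minimum CPM, 110 without the 3 highest cells of each gene and 133 with the other base cells weighted to the Epcam share of members. The number lower, 55, was 25 for the top 10%, 23 with 10 CPM added, 92 without the 3 highest cells and 27 with members chosen without C3. The ratio of member shares, 1.57, was 2.10 for the top 2.5%, 1.30 for the top 10%, 2.01 with the 5 genes weighted equally and 1.24 without C3. In the library ratio of members, the number of genes higher, 59, was 94 for the top 2.5%, 29 with 10 CPM added and 185 with no minimum, and the number lower, 34, was 62, 18 and 109. The complement activation median, -0.01 as the mean of both libraries, rests on 7 genes and took either sign: -0.16 for the top 2.5%, 0.17 for the top 10%, 0.12 with UMIs split, 0.32 thinned, 0.19 at 0 Ptprc UMIs, 0.21 without the highest doublet scores, 0.24 without cells with markers of other types, -0.14 for per-cell means, -0.18 without the 3 highest cells, 0.13 without Cxcl5, 0.05 without Lcn2, 0.11 without Vcam1, 0.22 at 0 Epcam UMIs and -0.073 with the Epcam weighting. The other 108 values of these 6 results stayed. For gene counts this meant within 1.5 times, and for the ratio of shares within counting error. For the complement median it meant within the standard deviation of the 2 library values. Of the values of named genes in members over other base cells, 675 stayed and 75 moved over all alternatives, and none changed sign. For the library ratio of named genes 321 stayed and 79 moved, and for list medians 494 and 106.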
